A study of Mus musculus with 15 samples.

Results

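The expression of 34 genes that control or carry out the synthesis of cholesterol and fatty acids was followed in 15 mouse tumors by RNA sequencing, to ask whether loss of caspase-2 or the type of tumor moved their messages. The genes were taken by name, with earlier results of these data known. They were 7 regulators of the sterol regulatory element binding proteins (SREBPs), 15 genes of sterol synthesis and transport, 6 genes of fatty acid synthesis and 6 desaturases and elongases. All 34 were among the 23329 genes in the files and among the 14880 tested, which had over 1 CPM (reads scaled to a common library size) in at least 3 tumors.

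All mice carried an oncogene of the Myc family and the groups differed in Casp2, the gene of the protease caspase-2. EμMyc mice (C57BL/6) carry Myc under the immunoglobulin heavy chain enhancer, which drives it in B cells, and their tumors were taken from cervical lymph nodes. Th-MYCN mice (Sv129/C57BL6) carry MYCN under the tyrosine hydroxylase promoter, active in neuroblasts of the sympathetic nervous system, and their tumors came from beside the thoracic spine and were picked for having few blood vessels. Each tumor type had a group with wild type Casp2 and a group with Casp2-/- throughout the mouse, which gave 4 wild type and 3 Casp2-/- lymphomas and 4 neuroblastomas of either genotype. Lymphomas appeared at 13 to 19 weeks of age without and at 8 to 12 weeks with loss of Casp2, and neuroblastomas at 10 to 21 and at 15 to 24 weeks. In the lymphomas the onset ages of the 2 genotypes did not overlap, so onset and genotype cannot be told apart there. Each tumor was one library from one mouse, so p-values here measure the spread between tumors. A further EμMyc/Casp2-/- tumor that the study removed is not analysed here.

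SREBPs are membrane-bound transcription factors made in the endoplasmic reticulum. When sterols are scarce, the escort protein SCAP carries them to the Golgi, where site-1 protease (Mbtps1) and site-2 protease (Mbtps2) cut them in turn and free the part that enters the nucleus. When sterols are plentiful, the INSIG proteins hold SCAP back. SREBP-2 (Srebf2) acts mainly on genes of cholesterol synthesis and SREBP-1 (Srebf1) mainly on genes of fatty acid synthesis. Caspase-2 has been reported to activate SREBPs through site-1 protease, which makes these genes a question for mice that lack it. Dividing cells need both products for new membranes. The message levels given here do not measure the cutting of SREBP proteins.

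Libraries held 4940464 to 17638029 reads assigned to genes, and 3 reads corresponded to 0.173 to 0.586 CPM. The 34 genes together took 0.262% to 0.685% of these reads. B-cell markers summed to 1774 to 4266 CPM in lymphomas and 1.25 to 10.3 CPM in neuroblastomas, and neuroblast markers to 1.57 to 14.4 and 1669.8 to 3633 CPM, with all 5 B-cell and all 6 neuroblast markers over 1 CPM in every tumor of their own type. EμMyc/Casp2-/- tumor 1 stood apart. It was the shallowest library, came from the only female mouse among the lymphomas per the study, and had T-cell markers at 1213 CPM against 21.3 to 135 CPM in the other lymphomas. Several results that rest on it are given with and without it. Casp2 itself stood at 167, 125, 203 and 139 CPM in EμMyc tumors and 58.0, 51.9 and 76.1 CPM in EμMyc/Casp2-/- tumors, and the groups did not overlap. It stood at 125, 93.3, 76.0 and 106 CPM in Th-MYCN and 80.2, 57.7, 39.6 and 54.5 CPM in Th-MYCN/Casp2-/- tumors, and the groups overlapped. In single tumor types its log2 difference was -1.35 in lymphomas (adjusted p = 0.0536, or 0.000400 by the likelihood ratio test and 0.000316 by DESeq2) and -0.79 in neuroblastomas (adjusted p = 0.327, 0.102 and 0.109 by the same tests). Averaged over both tumor types Casp2 fell by 1.07 on the log2 scale in Casp2-/- tumors (edgeR quasi-likelihood test with Benjamini-Hochberg adjustment, adjusted p = 0.0431). Counts per gene do not show which exons the remaining reads came from. The study reports that genotyping and immunoblotting bore out the Casp2 deletion in every tumor.

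In neuroblastomas none of the 34 genes changed detectably with loss of Casp2. Most stood slightly lower in Th-MYCN/Casp2-/- tumors, with a median log2 fold change of -0.14. The largest difference was in Scd1, a desaturase that puts the first double bond into saturated fatty acids, and its 95% interval included 0. The counts of genes passing an adjusted p of 0.05 were 0 of 34 by the quasi-likelihood test, against 0.0336% of all genes tested, 0 by edgeR's likelihood ratio test, against 0.894%, and 0 by DESeq2. At an unadjusted p under 0.05 the count was also 0 of 34, where 6.77% of all genes passed. For 21 of the 34 genes the 95% interval of the difference lay within 2-fold in either direction, and for the other 13 it reached past 2-fold.

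The regulators came first in this comparison because the reported link from caspase-2 to SREBP runs through one of them. Mbtps1 (GRCm38 chromosome 8, 119508156 to 119558735, minus strand) stood at 184, 216, 184 and 196 CPM in Th-MYCN and 194, 184, 149.9 and 205 CPM in Th-MYCN/Casp2-/- tumors. The groups overlapped through most of their range. The log2 difference was -0.09 with a 95% interval of -0.36 to 0.19, the narrowest among the members. Srebf2 stood at 305, 295, 366 and 238 CPM in Th-MYCN and 349, 219, 271 and 447 CPM in Th-MYCN/Casp2-/- tumors, and its lowest and highest values were both in the Casp2-/- group (log2 difference 0.10, 95% interval -0.65 to 0.84). Srebf1 stood at 79.4, 69.6, 69.8 and 69.8 CPM in Th-MYCN and 48.4, 44.3, 75.3 and 82.6 CPM in Th-MYCN/Casp2-/- tumors. Casp2-/- tumors 1 and 2 lay below every Th-MYCN tumor, while tumors 3 and 4 lay within or above them (log2 difference -0.20, 95% interval -0.67 to 0.26). Scap (-0.11), Insig2 (0.10) and Mbtps2 (-0.04) differed by less than their errors on the log2 scale, and Insig1, itself a target of SREBPs, had a log2 difference of -0.52 with a wide 95% interval of -1.46 to 0.42.

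Scd1 (chromosome 19, 44394455 to 44407879, minus strand) stood at 144, 155, 89.7 and 266 CPM in Th-MYCN and 139, 40.9, 42.8 and 59.1 CPM in Th-MYCN/Casp2-/- tumors. Casp2-/- tumors 2 to 4 lay below all Th-MYCN tumors and Casp2-/- tumor 1 lay within their range. The log2 difference was -1.22 ± 0.64 (SE), with a 95% interval of -2.58 to 0.14 and an adjusted p of 0.812 (edgeR quasi-likelihood test). Scd1 is abundant in fat cells, and the summed level of 6 adipocyte markers beside it was 145, 53.2, 13.4 and 197 CPM in Th-MYCN and 67.4, 16.6, 14.6 and 13.8 CPM in Th-MYCN/Casp2-/- tumors. Of these markers, Fabp4 alone stood at 109, 27.9, 8.6 and 131 CPM in Th-MYCN and 48.3, 11.8, 8.58 and 9.34 CPM in Th-MYCN/Casp2-/- tumors. The part of fat cells in the Scd1 values was not tested. Elovl6, which lengthens palmitate to stearate, stood at 143, 193, 178 and 175 CPM in Th-MYCN and 116, 121, 123 and 128 CPM in Th-MYCN/Casp2-/- tumors, and the groups did not overlap. It was the only member with separate groups in this comparison, where 3.68% of all genes tested were separate in the same direction. Its log2 difference of -0.50 ± 0.34 (SE) did not pass (95% interval -1.23 to 0.24, adjusted p = 0.931, edgeR quasi-likelihood test). Elovl5, which lengthens polyunsaturated fatty acids, had a log2 difference of -0.23 (95% interval -0.56 to 0.10), with 129, 110.1, 145 and 111 CPM in Th-MYCN and 109.7, 89.0, 121 and 103 CPM in Th-MYCN/Casp2-/- tumors, which overlapped.

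Among the 15 sterol genes, 14 had a log2 difference below 0 in neuroblastomas, where 50.3% of all genes did, and none passed the test. Their median was -0.24. Without Th-MYCN tumor 3 the median was 0.02 and 7 of 15 were below 0, and without Th-MYCN tumor 4 the median was -0.35. The lowest single differences were in Cyp51, which removes a methyl group from lanosterol (-0.34, 95% interval -1.22 to 0.53), and Sqle, squalene epoxidase (-0.33, 95% interval -1.23 to 0.57). Among the 6 genes of fatty acid synthesis, Fasn, fatty acid synthase, differed by 0.03 (95% interval -0.35 to 0.41) and Acss2, which makes acetyl-CoA from acetate, by 0.50 (95% interval -0.46 to 1.46), the highest difference of the 34. In bulk tumor RNA, fewer cells of a type and less RNA per cell cannot be told apart. Endothelial markers summed to 61.1, 43.9, 39.1 and 44.5 CPM in Th-MYCN and 19.9, 16.3, 14.8 and 26.4 CPM in Th-MYCN/Casp2-/- tumors, without overlap. Neuroblast markers also separated by genotype, at 3633, 3329, 3364 and 3495 CPM in Th-MYCN and 2506, 1669.8, 2840.0 and 2474 CPM in Th-MYCN/Casp2-/- tumors, and Schwann cell markers stood at 24.9, 30.4, 58.7 and 33.5 and 44.5, 51.0, 75.7 and 63.2 CPM, with overlap. The part of these cell types in the differences was not tested.

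**Figure D1:**
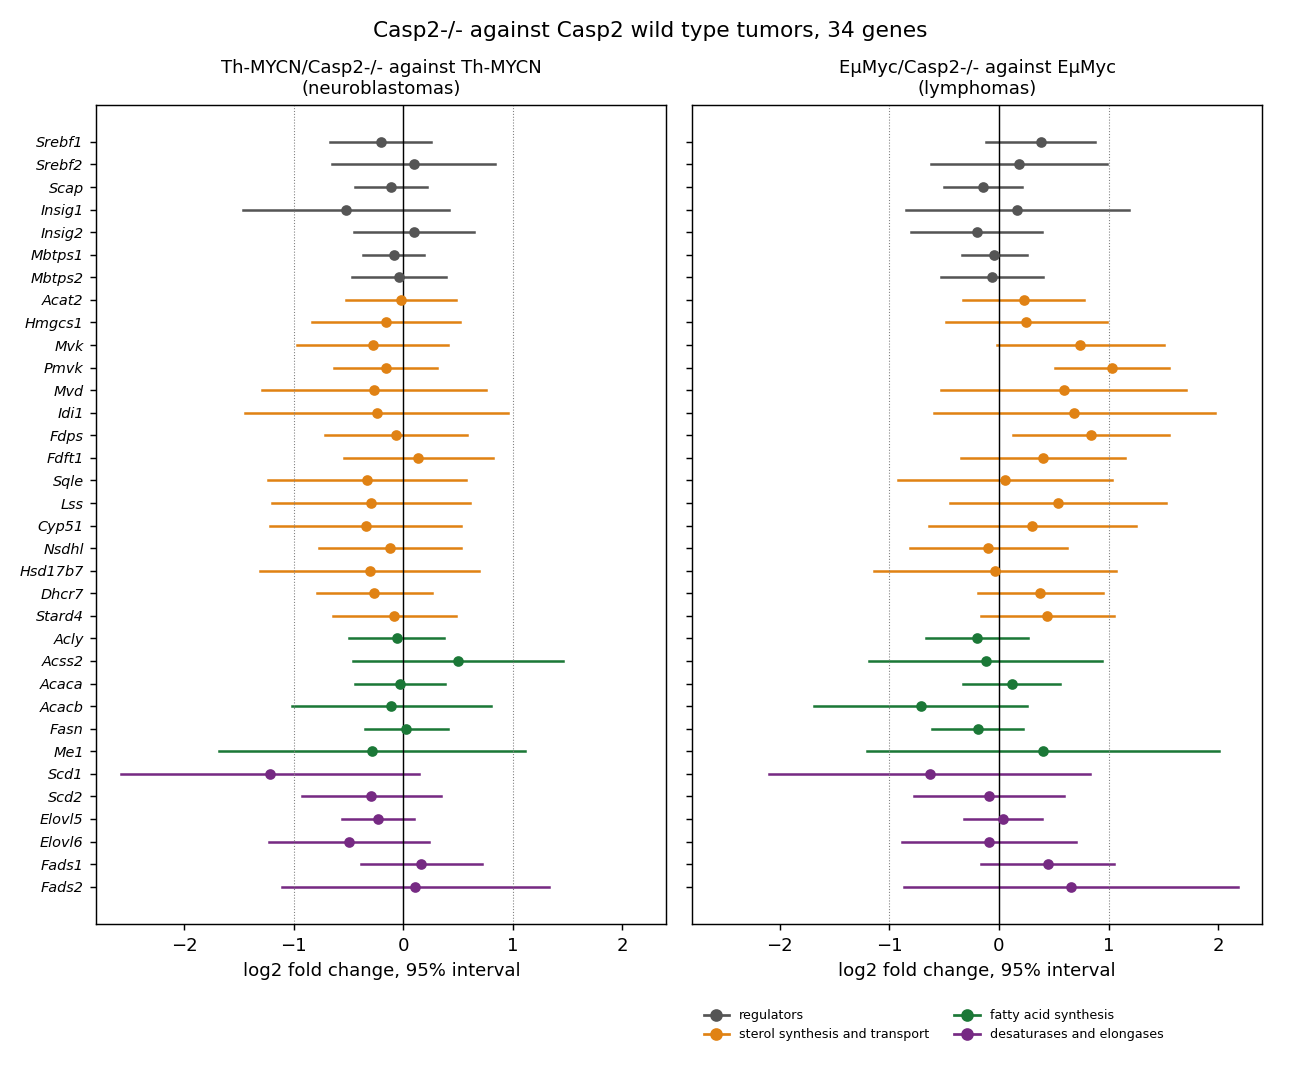
Log2 fold change of each of the 34 genes in Casp2-/- against wild type tumors, with its 95% interval, in neuroblastomas (4 against 4 tumors) and lymphomas (3 against 4). Dotted lines mark a 2-fold change in either direction. None of the 34 genes passed an adjusted p of 0.05 in either panel by the quasi-likelihood test, and Pmvk in lymphomas has the interval farthest from 0.

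In lymphomas, too, none of the 34 genes passed the quasi-likelihood test for loss of Casp2. Pmvk, phosphomevalonate kinase of the mevalonate pathway, came nearest, at 2.05-fold the level of EμMyc tumors in EμMyc/Casp2-/- tumors. The other sterol genes mostly stood somewhat higher in EμMyc/Casp2-/- tumors, and the spread between EμMyc tumors was as large as this difference. The count of genes passing was 0 of 34 by the quasi-likelihood test, against 0.141% of all genes tested. It was 1 of 34, Pmvk, by the likelihood ratio test, against 1.5% of all genes, and also 1, Pmvk, by DESeq2. At an unadjusted p under 0.05 the count was 2 of 34, Pmvk and Fdps, where 8.53% of all genes passed.

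Pmvk (GRCm38 chromosome 3, 89454541 to 89469013, plus strand) stood at 19.4, 15.8, 19.8 and 25.1 CPM in EμMyc and 46.7, 32.1 and 44.3 CPM in EμMyc/Casp2-/- tumors. All 3 Casp2-/- tumors lay above all 4 EμMyc tumors. It was the only member with separate groups, and 1.75% of all genes tested were separate in this direction. The log2 difference was 1.03 ± 0.24 (SE), with a 95% interval of 0.52 to 1.55. The adjusted p was 0.142 by edgeR's quasi-likelihood test, 0.0127 by its likelihood ratio test and 0.00821 by DESeq2. Without EμMyc/Casp2-/- tumor 1 the log2 difference was 0.95 and the quasi-likelihood adjusted p was 0.475. In a fit of the lymphomas alone the quasi-likelihood adjusted p was 0.982.

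Fdps, which makes farnesyl diphosphate, stood at 17.4, 13.5, 14.1 and 38.4 CPM in EμMyc and 36.5, 39.6 and 35.5 CPM in EμMyc/Casp2-/- tumors. EμMyc tumor 4 lay among the Casp2-/- tumors, and the other EμMyc tumors lay well below them. The log2 difference was 0.84 (95% interval 0.12 to 1.55, adjusted p = 0.462, edgeR quasi-likelihood test). Mvk, mevalonate kinase, showed the same arrangement apart from EμMyc tumor 4, which overlapped the Casp2-/- group narrowly, with 7.96, 5.65, 10.0 and 14.3 CPM in EμMyc and 18.2, 15.3 and 14.2 CPM in EμMyc/Casp2-/- tumors (log2 difference 0.74, 95% interval -0.02 to 1.50). Of the 15 sterol genes, 13 had a log2 difference above 0 in lymphomas, where 46.1% of all genes did, with a median of 0.40. Without EμMyc tumor 4 the median was 0.83 and without EμMyc/Casp2-/- tumor 1 it was 0.42, with 15 of 15 above 0 in both cases, and without EμMyc tumor 3 it was 0.25. The count above 0 was 12 to 15 of 15 over the fits that each left out one tumor.

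None of the 7 regulators passed in lymphomas, and Mbtps1 was again among the closest to 0. Mbtps1 stood at 175, 198, 189 and 171 CPM in EμMyc and 188, 173 and 174 CPM in EμMyc/Casp2-/- tumors, nearly the same range in both groups (log2 difference -0.04, 95% interval -0.34 to 0.26). Srebf1 stood at 92.5, 84.0, 81.0 and 134 CPM in EμMyc and 149.6, 112 and 122 CPM in EμMyc/Casp2-/- tumors, where EμMyc tumor 4 again lay among the Casp2-/- tumors (log2 difference 0.38, 95% interval -0.12 to 0.88). Srebf2 stood at 135, 192, 72.7 and 319.7 CPM in EμMyc and 143, 249 and 221 CPM in EμMyc/Casp2-/- tumors, and the EμMyc tumors enclosed the others (log2 difference 0.19, 95% interval -0.62 to 0.99). Of the fatty acid genes, Acacb, the acetyl-CoA carboxylase of the mitochondrial surface, had the lowest difference, at -0.72 (95% interval -1.69 to 0.26), and Fasn had -0.20 (95% interval -0.61 to 0.22). Scd1 was the most variable member that was also abundant, with 684, 253, 121 and 791 CPM in EμMyc and 55.9, 528 and 309 CPM in EμMyc/Casp2-/- tumors, and its groups overlapped (log2 difference -0.63, 95% interval -2.10 to 0.83).

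Averaged over both tumor types, loss of Casp2 left 0 of 34 genes past the quasi-likelihood test, against 0.0336% of all genes tested, and also 0 by the likelihood ratio test, against 0.806%, and 0 by DESeq2. At an unadjusted p under 0.05 the count was 1, Pmvk, where 8.47% of all genes passed. The averaged difference of Pmvk was 0.44 on the log2 scale (95% interval 0.09 to 0.79, adjusted p = 0.515, edgeR quasi-likelihood test) and that of Mbtps1 was -0.07 (95% interval -0.27 to 0.14). The next smallest p-values belonged to Scd1, at -0.92 (95% interval -1.92 to 0.07, adjusted p = 0.630), and Fdps, at 0.39 (95% interval -0.10 to 0.87, adjusted p = 0.667). For 29 of the 34 genes the interval lay within 2-fold. The test of whether the genotype difference itself differed between lymphomas and neuroblastomas passed for 0 of 34 genes by the quasi-likelihood test, against 0.0538% of all genes tested, for 0 by the likelihood ratio test, against 0.914%, and for 0 by DESeq2. Pmvk was the only member at an unadjusted p under 0.05, where 7.57% of all genes passed, and had the largest such difference, 1.20 higher on the log2 scale in lymphomas (95% interval 0.49 to 1.90, adjusted p = 0.324 by the quasi-likelihood test and 0.0749 by the likelihood ratio test). Mvk (1.02, 95% interval -0.00 to 2.05, adjusted p = 0.659) and Fdps (0.91, 95% interval -0.06 to 1.87, adjusted p = 0.682) followed. All 15 sterol genes had a difference above 0 here, where 49.4% of all genes did, with a median of 0.64 that ranged from 0.37 without Th-MYCN tumor 3 to 1.13 without EμMyc tumor 4. The count above 0 was 13 to 15 over those fits.

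The type of tumor was associated with much larger differences. Sterol and fatty acid synthesis genes were mostly lower in lymphomas than in neuroblastomas, in wild type and in Casp2-/- tumors alike, while the regulators differed less. The widest gap was in Fads2 and Fads1, the delta-6 and delta-5 desaturases that make long polyunsaturated fatty acids, followed by Me1, a malic enzyme, and genes of the mevalonate pathway. Tumor type cannot be told apart from tissue, strain and oncogene in this design, and lymphoma and neuroblastoma cells are different cell types. In EμMyc against Th-MYCN tumors, 21 of 34 genes were lower, against 32.9% of all genes tested, and 2 were higher, against 27.4%. Over 2-fold, 16 were lower, against 27.8% of all genes, and 1 was higher, against 18.3%. In EμMyc/Casp2-/- against Th-MYCN/Casp2-/- tumors, 16 were lower, against 31.4%, and 5 were higher, against 26.8%. In both comparisons 15 were lower, against 28.2% of all genes, and 2, Scap and Acacb, were higher, against 22.3%, with calls among Casp2-/- tumors that held in 2 and 3 of 7 fits without one tumor. The median log2 difference over the 34 genes was -0.83 in wild type and -0.80 in Casp2-/- tumors, where the median of all genes tested was -0.04 in wild type tumors. These comparisons share no tumors. Groups lay wholly apart, lymphomas lower, for 16 of 34 members in each comparison, against 4901 and 4638 of the 14880 genes tested. With lymphomas higher, they lay apart for 3 members in each, against 3931 and 3509 genes.

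**Figure D2:**
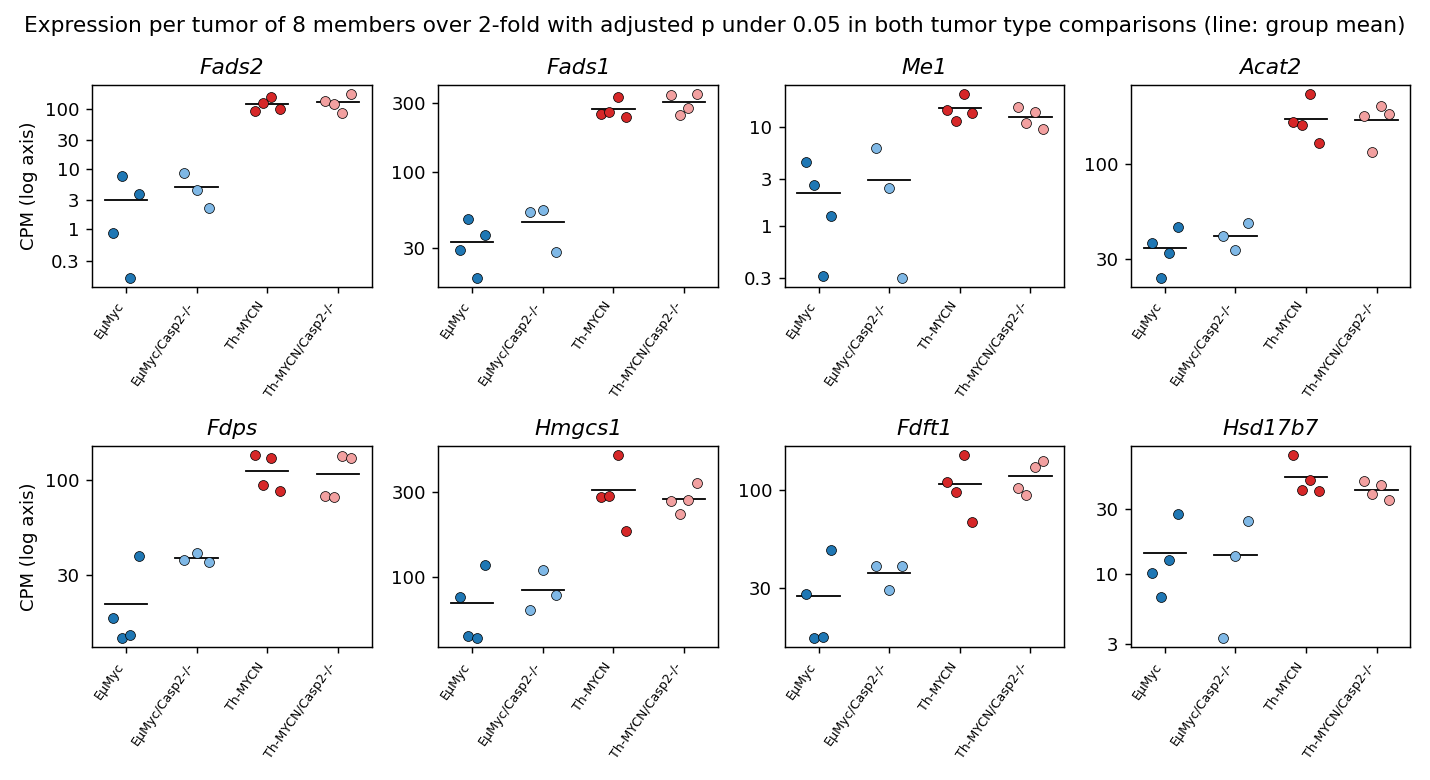
Level of 8 members in CPM on a log axis, those with the largest mean tumor type difference among members over 2-fold with an adjusted p under 0.05 in both comparisons, in each of the 15 tumors by group, with a line at the group mean. For all 8, which were picked for large differences, every lymphoma lies below every neuroblastoma. All EμMyc tumors lay below all Th-MYCN tumors for 4901 of the 14880 genes tested.

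Of the 15 sterol genes, 12 were lower in EμMyc than in Th-MYCN tumors and 8 were lower in both comparisons, with median log2 differences of -1.69 in wild type and -0.98 in Casp2-/- tumors. Acat2, the cytosolic acetyl-CoA acetyltransferase at the head of the pathway (chromosome 17, 12942890 to 12960747, minus strand), stood at 36.9, 23.7, 32.5 and 45.2 CPM in EμMyc, 40.0, 33.8 and 47.3 in EμMyc/Casp2-/-, 171, 163, 243 and 130.4 in Th-MYCN and 185, 116, 208 and 189 in Th-MYCN/Casp2-/- tumors. The highest lymphoma was far below the lowest neuroblastoma. On the log2 scale, lymphomas differed from neuroblastomas by -2.35 ± 0.24 (SE, adjusted p = 9.6e-07) in wild type and -2.11 ± 0.26 (adjusted p = 1.06e-05) in Casp2-/- tumors, or 5.11-fold and 4.32-fold higher in neuroblastomas.

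Hmgcs1 encodes the cytosolic HMG-CoA synthase, an early enzyme of the mevalonate pathway. It stood at 77.3, 46.9, 45.7 and 117 CPM in EμMyc, 65.6, 111 and 79.4 in EμMyc/Casp2-/-, 280.5, 286, 484 and 181 in Th-MYCN and 269, 226, 271 and 335 in Th-MYCN/Casp2-/- tumors. No lymphoma reached the level of any neuroblastoma, with EμMyc tumor 4 the nearest. On the log2 scale lymphomas differed by -2.10 ± 0.32 (SE, adjusted p = 5.83e-05) in wild type and -1.69 ± 0.34 (adjusted p = 0.000961) in Casp2-/- tumors, or 4.29-fold and 3.22-fold higher in neuroblastomas.

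Mevalonate is phosphorylated by Mvk and then by Pmvk. Mvk was 3.45-fold higher in Th-MYCN than in EμMyc tumors (log2 difference -1.79, adjusted p = 0.000298), and among Casp2-/- tumors its difference of -0.76 did not pass (95% interval -1.52 to -0.01, adjusted p = 0.0815). Pmvk stood at 89.1, 85.0, 97.2 and 94.6 CPM in Th-MYCN and 53.1, 66.7, 111 and 96.8 CPM in Th-MYCN/Casp2-/- tumors, above every lymphoma. It was 4.57-fold higher in neuroblastomas among wild type and 2.0-fold higher among Casp2-/- tumors (adjusted p = 1.02e-06 and 0.00281).

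Fdps (chromosome 3, 89093588 to 89101959, minus strand) stood at 137, 93.9, 132 and 86.6 CPM in Th-MYCN and 81.3, 80.1, 136 and 133 CPM in Th-MYCN/Casp2-/- tumors, and no lymphoma exceeded 39.6 CPM. Its log2 difference was -2.43 ± 0.31 (SE, adjusted p = 1.11e-05) in wild type and -1.53 ± 0.33 (adjusted p = 0.00148) in Casp2-/- tumors. Fdft1, the squalene synthase that commits the pathway to sterols (chromosome 14, 63145150 to 63179578, minus strand), stood at 28.2, 16.3, 16.6 and 48.2 CPM in EμMyc, 39.5, 29.3 and 39.6 in EμMyc/Casp2-/-, 110.1, 96.9, 153 and 67.8 in Th-MYCN and 102, 93.4, 132 and 142 in Th-MYCN/Casp2-/- tumors. Again every lymphoma was below every neuroblastoma. For Fdft1 the log2 difference was -1.97 ± 0.32 (SE, adjusted p = 0.000110) in wild type and -1.71 ± 0.35 (adjusted p = 0.000956) in Casp2-/- tumors. Exons of Fdft1 share 774 bases with Ctsb on the opposite strand and exons of Fdps share 1124 bases with Gm43738 on the same strand, so part of their reads is uncertain. With reads counted on either strand the wild type difference was -2.11 for Fdft1, and no count used here bears on the same-strand overlap of Fdps.

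Hsd17b7, which reduces a keto group in the late steps to cholesterol, stood at 10.1, 6.67, 12.5 and 27.8 CPM in EμMyc, 3.32, 13.4 and 24.3 in EμMyc/Casp2-/-, 75.6, 41.3, 49.6 and 40.5 in Th-MYCN and 48.7, 38.7, 44.8 and 35.0 in Th-MYCN/Casp2-/- tumors. EμMyc tumor 4 and EμMyc/Casp2-/- tumor 3 were the highest lymphomas and still lay below the neuroblastomas. For Hsd17b7 the log2 difference was -1.86 ± 0.47 (SE, adjusted p = 0.00381) in wild type and -1.59 ± 0.51 (adjusted p = 0.0187) in Casp2-/- tumors. The second call was lost without EμMyc/Casp2-/- tumor 1 (-1.09, adjusted p = 0.0638) and without EμMyc/Casp2-/- tumor 2 (-1.51, adjusted p = 0.0619), and without EμMyc/Casp2-/- tumor 3 the difference was -2.28. Nsdhl and Dhcr7, which act late in the pathway, were lower in both comparisons (-1.23 and -1.20 for Nsdhl, -1.62 and -0.98 for Dhcr7, on the log2 scale). Without EμMyc/Casp2-/- tumor 1 the difference of Nsdhl among Casp2-/- tumors was -0.92 and still passed. Sqle, Lss and Mvd were lower among wild type tumors (-1.04, -1.26 and -1.69) and did not pass among Casp2-/- tumors (-0.66, -0.43 and -0.83). Of 8 fits that each left out one tumor, the wild type call held in 2 for Sqle and in 5 for Lss, and without EμMyc tumor 4 the differences of Sqle, Lss and Mvd were -1.79, -1.99 and -2.35. Exons of Lss share 381 bases with an antisense gene on the opposite strand, so part of its reads is uncertain.

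The remaining 3 sterol genes did not pass among wild type tumors. Cyp51 did not pass in either comparison (-0.78 and -0.14, adjusted p = 0.114 and 0.811). Stard4, which carries cholesterol between membranes, was higher in EμMyc/Casp2-/- than in Th-MYCN/Casp2-/- tumors (0.95, adjusted p = 0.00934) and had a difference of 0.43 in wild type tumors that did not pass (95% interval -0.13 to 0.99). Idi1, the isopentenyl diphosphate isomerase, was at 0.579 to 4.34 CPM over all tumors, and its 323 reads in the strand column used were fewer than those in the other strand column by a factor of 2.57, so its values are uncertain. It is counted among the 15 sterol genes throughout. Without it, 13 of 14 sterol genes were below 0 for loss of Casp2 in neuroblastomas (median -0.21), 12 of 14 were above 0 in lymphomas (median 0.39) and 14 of 14 were above 0 in the difference between tumor types (median 0.58).

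The promoters of the sterol genes are shown because most of these genes were lower in the same tumor type. SREBPs bind sterol regulatory elements, usually beside CCAAT boxes that bind the factor NF-Y, and Myc proteins bind the E-box. The 250 bases before each transcription start were searched on both strands, in RefSeq promoters of GRCm38.p6, for one form of the sterol regulatory element (TCACNCCAC), the E-box CACGTG and the CCAAT box. A longer or degenerate form was not searched. Of the 34 genes, 27 had a promoter in the table, in 36 promoters. The other 7 were Fdps, Fdft1, Sqle, Stard4, Scd1, Scd2 and Fads1. The sterol regulatory element was found in 1 of the 36, that of Hmgcs1, 137 bases before its start, where 1.05% of 32851 promoters held it. The CCAAT box was found in 20 of the 36 promoters, where 33.8% of all promoters held it. By gene, it was in at least 1 promoter of 19 of the 27, namely 10 of the 11 sterol genes with a promoter, 4 of 7 regulators, 4 of 6 fatty acid genes and 1 of 3 desaturases and elongases. The 33.8% counts promoters, and no such share by gene was computed. The E-box was found in 5 of the 36 promoters, those of Scap, Insig1, Hsd17b7, Dhcr7 and Elovl5, where 6.02% of all promoters held it. Hmgcs1 (chr13:119690101-119690350, plus strand) is printed for its sterol regulatory element, Mvk (chr5:114444019-114444268, plus strand) for its 5 CCAAT boxes, Hsd17b7 (chr1:169969206-169969455, minus strand) for an E-box beside CCAAT boxes, and Fads2 (chr19:10101504-10101753, minus strand) as the member with the widest gap, in which none of the 3 motifs was found. Each is written 5′ to 3′ on the strand of the gene, with motif matches in capitals, where ATTGG is a CCAAT box on the other strand.
Hmgcs1: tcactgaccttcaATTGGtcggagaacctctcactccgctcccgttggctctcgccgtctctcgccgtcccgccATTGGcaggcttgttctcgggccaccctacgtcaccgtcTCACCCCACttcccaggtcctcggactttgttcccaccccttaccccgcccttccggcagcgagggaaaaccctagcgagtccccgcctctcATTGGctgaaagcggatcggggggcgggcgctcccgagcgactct
Mvk: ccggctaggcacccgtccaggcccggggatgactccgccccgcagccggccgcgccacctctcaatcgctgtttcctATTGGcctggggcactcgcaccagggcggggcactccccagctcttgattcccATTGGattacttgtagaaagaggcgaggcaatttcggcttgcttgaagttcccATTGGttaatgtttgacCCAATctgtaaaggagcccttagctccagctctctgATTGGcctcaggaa
Hsd17b7: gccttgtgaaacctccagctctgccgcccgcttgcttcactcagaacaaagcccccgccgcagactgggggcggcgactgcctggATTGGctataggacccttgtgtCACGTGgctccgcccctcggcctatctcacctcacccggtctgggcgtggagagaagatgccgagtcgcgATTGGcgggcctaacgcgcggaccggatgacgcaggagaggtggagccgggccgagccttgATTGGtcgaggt
Fads2: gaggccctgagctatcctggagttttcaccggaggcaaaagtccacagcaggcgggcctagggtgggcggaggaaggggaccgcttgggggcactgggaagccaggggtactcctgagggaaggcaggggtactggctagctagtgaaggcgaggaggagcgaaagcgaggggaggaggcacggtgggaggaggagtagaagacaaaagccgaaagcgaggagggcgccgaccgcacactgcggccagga
A match here is a description of these letters and not evidence of binding.

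Of the 6 genes of fatty acid synthesis, 5 were lower in EμMyc than in Th-MYCN tumors and 4 were lower in both comparisons. Me1, the malic enzyme that supplies NADPH for the synthesis, stood at 4.37, 2.57, 0.315 and 1.27 CPM in EμMyc, 6.06, 2.42 and 0.303 in EμMyc/Casp2-/-, 14.7, 11.5, 21.4 and 13.7 in Th-MYCN and 15.7, 10.9, 14.1 and 9.50 in Th-MYCN/Casp2-/- tumors. It was close to the level of a few reads in some lymphomas and at 9.50 CPM or more in all neuroblastomas. Its log2 difference was -2.84 ± 0.68 (SE, adjusted p = 0.00293) in wild type and -2.15 ± 0.74 (adjusted p = 0.0282) in Casp2-/- tumors. The second call was lost without EμMyc/Casp2-/- tumor 2 (adjusted p = 0.0924), without EμMyc/Casp2-/- tumor 3 (adjusted p = 0.0749) and without Th-MYCN/Casp2-/- tumor 1 (adjusted p = 0.0545), and without EμMyc/Casp2-/- tumor 1 the difference was -3.11.

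Fasn stood at 473, 502, 538 and 521 CPM in EμMyc, 324, 490.5 and 517 in EμMyc/Casp2-/-, 1030.4, 848, 953 and 674 in Th-MYCN and 954, 758, 783 and 1076 in Th-MYCN/Casp2-/- tumors, with log2 differences of -0.78 and -1.01 (adjusted p = 0.00149 and 0.000484). The gap was small next to that of Me1 but regular across tumors. Acly, which makes acetyl-CoA from citrate, differed by -0.74 and -0.88 (adjusted p = 0.00536 and 0.00338), and Acss2 by -1.19 and -1.81 (adjusted p = 0.0357 and 0.00766), where the wild type call of Acss2 held in 2 of 8 fits without one tumor (it was -1.93 without EμMyc tumor 4). Without EμMyc/Casp2-/- tumor 1 the differences of Fasn and Acly among Casp2-/- tumors were -0.76 and -0.55, and both still passed. Exons of Acss2 share 395 bases with Gss, 335 with Acss2os and 197 with Ggt7 on the opposite strand, so part of its reads is uncertain. The pair of acetyl-CoA carboxylases went in opposite directions among wild type tumors, with Acaca lower (-0.57, adjusted p = 0.0180) and Acacb higher (1.74, adjusted p = 0.00279) in lymphomas. Acacb was at 10.0 to 54.2 CPM in lymphomas and 5.83 to 11.7 CPM in neuroblastomas, and its call in Casp2-/- tumors (1.13, adjusted p = 0.0446) held in 3 of 7 fits without one tumor. It was lost without Th-MYCN/Casp2-/- tumors 2, 3 and 4 (adjusted p = 0.102, 0.0725 and 0.0855) and without EμMyc/Casp2-/- tumor 3 (0.46, adjusted p = 0.427).

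Fads2 (chromosome 19, 10062765 to 10101746, minus strand) stood at 0.875, 7.53, 0.157 and 3.82 CPM in EμMyc, 8.40, 4.51 and 2.22 in EμMyc/Casp2-/-, 93.0, 125, 156 and 99.1 in Th-MYCN and 133, 119.6, 84.2 and 174 in Th-MYCN/Casp2-/- tumors. The highest lymphoma was far below the lowest neuroblastoma, and EμMyc tumor 3 was below the level that 3 reads give. On the log2 scale the difference was -5.26 ± 0.62 (SE, adjusted p = 1.25e-05) in wild type and -4.72 ± 0.67 (adjusted p = 0.000110) in Casp2-/- tumors, or 38.4-fold and 26.3-fold higher in neuroblastomas. Its low level in lymphomas made the size uncertain, and leaving out one tumor moved the wild type difference from -6.26 (without EμMyc tumor 2) to -4.84 (without EμMyc tumor 3). Fads1, its neighbour on the plus strand (chromosome 19, 10182888 to 10196877), stood at 28.9, 47.9, 18.7 and 37.1 CPM in EμMyc, 52.7, 54.8 and 28.0 in EμMyc/Casp2-/-, 254, 260.2, 333 and 239 in Th-MYCN and 342, 250.5, 279 and 347 in Th-MYCN/Casp2-/- tumors. Every neuroblastoma was several times above every lymphoma. Its log2 difference was -3.03 ± 0.26 (SE, adjusted p = 2.34e-07) in wild type and -2.75 ± 0.28 (adjusted p = 2.54e-06) in Casp2-/- tumors.

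Scd1 went the other way, with a log2 difference of 1.50 in wild type (95% interval 0.14 to 2.85, adjusted p = 0.0582 by the quasi-likelihood test and 0.0313 by the likelihood ratio test) and 2.08 in Casp2-/- tumors (adjusted p = 0.0180). The second call was lost without EμMyc/Casp2-/- tumor 2 (1.43, adjusted p = 0.113) and without Th-MYCN/Casp2-/- tumor 2 or 3 (adjusted p = 0.0530 and 0.0515). Beside these values the adipocyte markers summed to 219, 233, 50.5 and 34.5 CPM in EμMyc and 143, 70.9 and 41.6 CPM in EμMyc/Casp2-/- tumors. Most of each sum was Fabp4, at 177, 185, 50.3 and 28.1 CPM in EμMyc and 128, 52.9 and 38.8 CPM in EμMyc/Casp2-/- tumors. The part of fat cells was not tested. Scd2 was lower in EμMyc than in Th-MYCN tumors (-0.80, adjusted p = 0.0315), a call that held in 3 of 8 fits without one tumor, and did not pass in Casp2-/- tumors (-0.59, adjusted p = 0.132). Elovl5 and Elovl6 did not pass in either comparison, with log2 differences between -0.40 and 0.11.

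**Figure D3:**
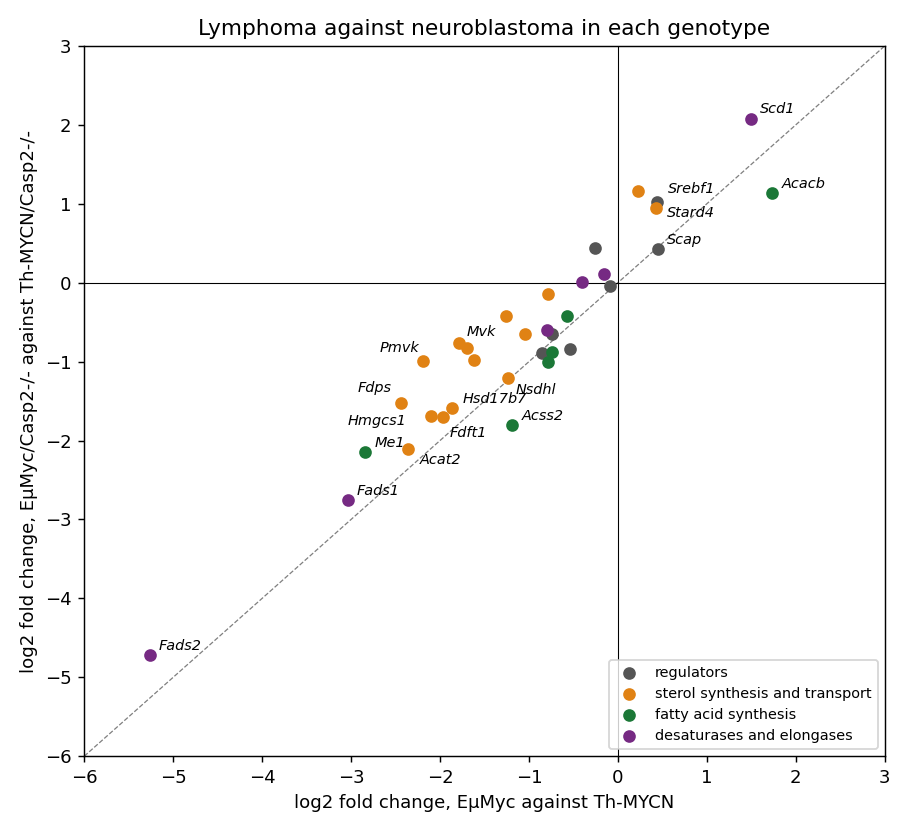
Log2 fold change of lymphomas against neuroblastomas for each of the 34 genes, among wild type tumors (horizontal axis) and among Casp2-/- tumors (vertical axis), coloured by role. Fads2 and Fads1 lie farthest below 0 on both axes, while Acacb lies farthest above 0 on the horizontal and Scd1 on the vertical axis. The dashed line marks equal values.

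Most regulators differed by less than 2-fold between tumor types. Mbtps1 differed by -0.09 in wild type (95% interval -0.36 to 0.19) and -0.04 in Casp2-/- tumors (95% interval -0.34 to 0.26) on the log2 scale. Mbtps2 stood at 45.7, 39.6, 39.7 and 33.0 CPM in EμMyc, 26.0, 44.4 and 42.5 in EμMyc/Casp2-/-, 57.6, 75.3, 80.9 and 72.4 in Th-MYCN and 84.6, 77.6, 60.8 and 56.0 in Th-MYCN/Casp2-/- tumors. The tumor types did not overlap, and it was lower in lymphomas in both comparisons (-0.86 and -0.89, adjusted p = 0.00191 and 0.00316). Without EμMyc/Casp2-/- tumor 1, Mbtps2 differed by -0.62 among Casp2-/- tumors and still passed. Its exons share 2867 bases with Yy2 on the same strand. Srebf1 and Srebf2 pointed in opposite directions. Srebf1 was higher in EμMyc/Casp2-/- than in Th-MYCN/Casp2-/- tumors (1.03, adjusted p = 0.00146) and had a difference of 0.44 in wild type tumors (95% interval -0.02 to 0.90, adjusted p = 0.0912), where the 4 EμMyc tumors nonetheless lay above the 4 Th-MYCN tumors. Srebf2 had differences of -0.74 and -0.65 that did not pass (adjusted p = 0.0795 and 0.157). Scap stood at 152, 247, 161 and 165 CPM in EμMyc, 159, 173 and 161 in EμMyc/Casp2-/-, 133, 124, 147 and 126 in Th-MYCN and 132, 122, 113 and 124 in Th-MYCN/Casp2-/- tumors, with every lymphoma above every neuroblastoma. It was slightly higher in lymphomas (0.45 and 0.42, adjusted p = 0.0202 and 0.0407), with calls that held in 5 of 8 and 2 of 7 fits without one tumor. The genes of the retention proteins varied more between tumors. Insig2 stood at 24.8, 20.8, 44.3 and 26.9 CPM in EμMyc, 17.6, 26.8 and 31.5 in EμMyc/Casp2-/-, 50.5, 38.1, 42.0 and 39.1 in Th-MYCN and 45.4, 55.6, 48.0 and 32.3 in Th-MYCN/Casp2-/- tumors. It was lower in Casp2-/- lymphomas (-0.84, adjusted p = 0.0196), but without EμMyc/Casp2-/- tumor 1 it did not pass (-0.58, adjusted p = 0.107), nor without EμMyc/Casp2-/- tumor 2 (adjusted p = 0.0522) or Th-MYCN/Casp2-/- tumor 2 (adjusted p = 0.0533). Insig1 stood at 34.2, 22.8, 32.0 and 94.7 CPM in EμMyc, 20.7, 57.4 and 75.9 in EμMyc/Casp2-/-, 59.0, 52.8, 75.0 and 31.7 in Th-MYCN and 49.5, 26.6, 33.6 and 42.3 in Th-MYCN/Casp2-/- tumors, highest in EμMyc tumor 4, and did not pass in either comparison (-0.25 and 0.44).

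Levels per length, which set genes beside each other only roughly, put the same few members first in every group. Length was that of the merged exons of all annotated transcripts of a gene, and it was not computed for Stard4. Among the other 33 members Scd2 led, at 99.9 CPM per kilobase in EμMyc, 93.9 in EμMyc/Casp2-/-, 174 in Th-MYCN and 142 in Th-MYCN/Casp2-/- tumors. Acly and Fasn were among the first 4 in all groups. Acat2 was the 4th in both neuroblastoma groups, at 69.5 and 68.6 CPM per kilobase, against 13.6 and 15.9 in the lymphoma groups. Idi1, Me1, Acss2 and Acacb were at the low end in neuroblastomas.

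Within groups, single tumors stood high or low across most of the sterol genes. EμMyc tumor 4 was the highest of its group for 14 of 15 sterol genes, where it was highest for 22.5% of all genes tested, and Th-MYCN tumor 3 for 13 of 15, where it was highest for 29.6%. Th-MYCN tumor 4 was the lowest of its group for 13 of 15, where it was lowest for 20.7% of all genes, and EμMyc tumor 2 for 10 of 15, where it was lowest for 25.5%. Levels of the 15 sterol genes summed to 459, 340.0, 343 and 987 CPM in EμMyc, 594, 659.6 and 771 in EμMyc/Casp2-/-, 1495, 1472, 2181 and 1123 in Th-MYCN and 1337, 1128, 1472 and 1622 in Th-MYCN/Casp2-/- tumors. EμMyc tumor 4, with onset at 19 weeks the latest of its group, thus had more sterol message than any Casp2-/- lymphoma, and the other 3 EμMyc tumors had less. Th-MYCN tumor 3, with the highest sum of all tumors, had the earliest onset of its group, at 10 weeks. The pooled standard deviation within groups of the mean log2 level of the sterol genes was 0.42, about as large as their median genotype difference in lymphomas and larger than that in neuroblastomas. This value describes single tumors and is not the error of a difference between group means. The median within-group standard deviation of the members was 0.56 log2 CPM among lymphomas and 0.34 among neuroblastomas, and that of all genes tested was 0.50 and 0.32.

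**Figure D4:**
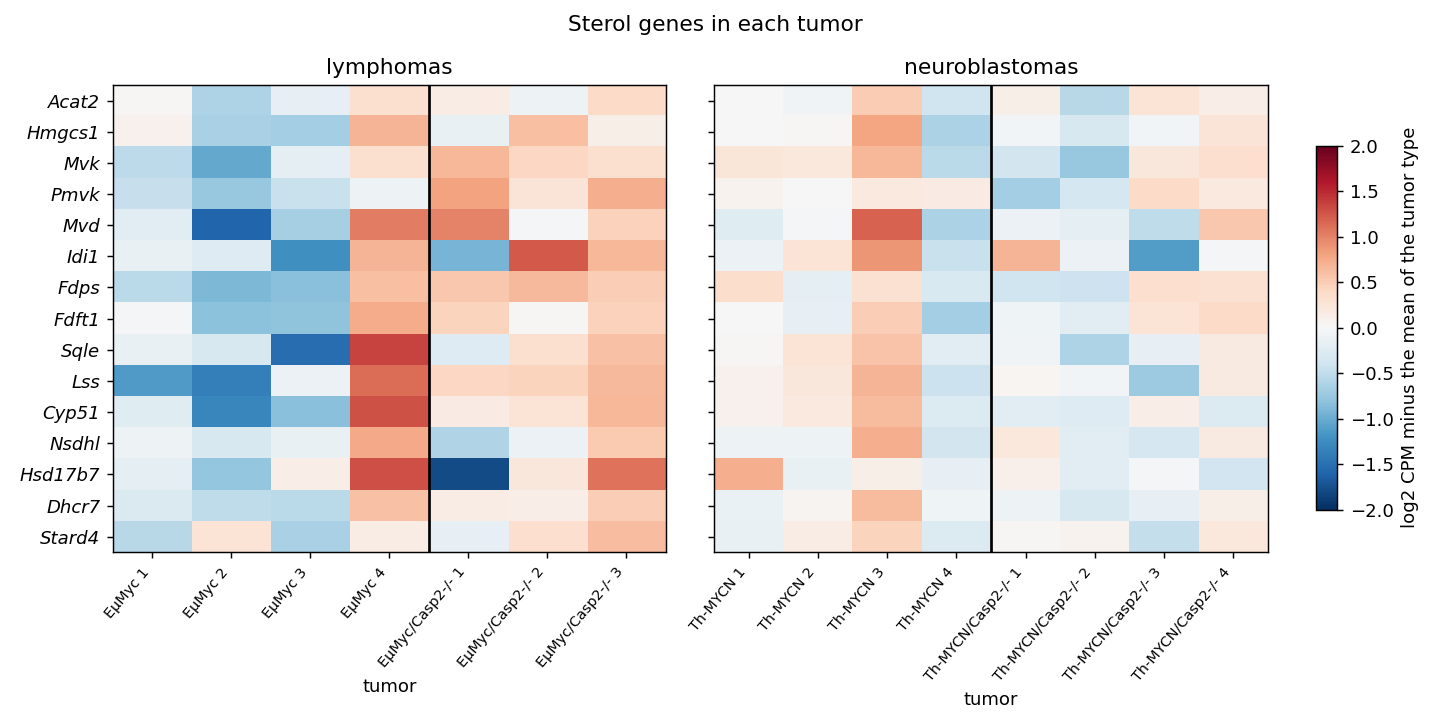
Level of each of the 15 sterol genes in each tumor, as log2 CPM minus the mean of that gene over tumors of the same type (colour scale from -2 to 2). EμMyc tumor 4 and Th-MYCN tumor 3 are high across nearly all sterol genes.

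Other genes of these pathways were read from wider lists of known genes. None of them passed the quasi-likelihood test, the likelihood ratio test or DESeq2 for loss of Casp2 in either tumor type. At an unadjusted p under 0.05 there was 1 of 10 genes of sterol uptake, export and storage in each tumor type. In lymphomas there was also 1 of 15 other genes of fatty acid synthesis. This level was passed by 6.77% of all genes tested in neuroblastomas and 8.53% in lymphomas. Of all genes tested, 27.4% were higher and 32.9% lower in EμMyc than in Th-MYCN tumors, and several of the list counts that follow lie near these shares. Between these tumors, 2 of 8 further genes of sterol synthesis were higher and 2 lower in lymphomas. Lbr, which has sterol reductase activity and anchors chromatin at the nuclear envelope, was at 277 to 705 CPM in lymphomas and 67.2 to 124 CPM in neuroblastomas (2.66 on the log2 scale, adjusted p = 1.67e-07). Of 10 genes of sterol uptake, export and storage, 5 were higher and 1 lower, among them Mylip, a ligase that degrades the LDL receptor (2.42, adjusted p = 1e-06), and Npc1, which moves cholesterol out of lysosomes (-0.74, adjusted p = 0.00443). Of 15 further genes of fatty acid synthesis tested, 2 were higher and 5 lower. Elovl2, which acts on the products of Fads1 and Fads2, was at 17.4 to 56.6 CPM in neuroblastomas and 0 to 0.250 CPM in lymphomas, at or under the level of 3 reads. Elovl1 was higher in lymphomas (2.39, adjusted p = 1.6e-07). Of 8 genes of fatty acid oxidation tested, 2 were higher and 1 lower, among them Acadl, a long-chain acyl-CoA dehydrogenase (2.26, adjusted p = 1.25e-06). Of 6 genes that act on the turnover or retention of SREBPs, 2 were higher and 4 lower, among them Fbxw7, the ligase subunit that marks nuclear SREBPs for degradation (-1.53, adjusted p = 0.000308), and Paqr3, which holds SCAP and SREBP at the Golgi (-2.83, adjusted p = 0.000695). Fbxw7 also acts on Myc proteins and other targets. Among Casp2-/- tumors, where 26.8% of all genes were higher and 31.4% lower, the counts of genes higher and lower were 2 and 2 for sterol synthesis, 7 and 1 for uptake, export and storage, 2 and 5 for fatty acid synthesis, 3 and 2 for oxidation and 2 and 4 for turnover.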

How the data were processed

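RNA was extracted with Trizol from individual tumors, and poly(A) libraries were read as single 50-base reads on an Illumina HiSeq. After quality checks in FastQC, the authors mapped reads with STAR to the mm10/GRCm38 genome and deposited its raw read counts per gene, not normalized, in 3 columns, for either strand and for each strand (versions and annotation release not given in the sources used here). The counts of the last column were used, as in the study. Both strand columns summed to nearly equal totals (ratio 1.03 to 1.05), so strand was not marked and antisense partners cannot be told apart. The 4 lines that name no gene held 66.4% to 71.8% of that column and were left out. Precision depended on the 4940464 to 17638029 reads per tumor and on the spread between tumors. No 2 libraries of a group were copies (chi-square per degree of freedom 16.2 to 76 over 21 pairs).

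The filter kept a gene where 3 or more tumors had over 1 CPM. Tests were run in R 4.3.3 with edgeR 4.0.16 (TMM scaling, also used for CPM, 1 model with 4 group means over all 15 tumors, quasi-likelihood test, Benjamini-Hochberg adjustment over all 14880 genes). "Passed", "higher" and "lower" mean an adjusted p under 0.05. Intervals are 95% intervals from the fit. Alternatives were edgeR's likelihood ratio test, DESeq2 1.42.0, other scaling, strands and filters, the 2 groups alone, onset as a covariate, and leaving out each tumor. The procedure was tested on simulated counts. Values in every tumor were given for the regulators, for members that passed a genotype comparison by either edgeR test or, where none did, the 3 with the smallest p, and for the 8 with the largest mean difference among those past 2-fold with an adjusted p under 0.05 in both tumor type comparisons. Other genes were the 2 with the smallest p of each wider list, of which some are not reported here. Mvk, Fasn, Cyp51, Sqle and further members were named after their values were seen. Sex was not a covariate, since groups were taken from the labels, which do not give it, although the study's own sample list does. The members and lists were chosen with earlier results of these data known. Positions came from GENCODE M21 (GRCm38) and promoters from RefSeq (GRCm38.p6), by symbol.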

Additional observations from a re-analysis of the deposited data

Results flagged for a closer look

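Of 102 tests for a tumor far from the rest of its group (groups of 4), 8 met Dixon's limit, and chance gives about 1 in 20. Of these, 5 were in EμMyc tumor 4, the tumor that was highest for most sterol genes. They were Insig1 at 94.7 CPM with the next tumor at 34.2, Fdps at 38.4 with the next at 17.4, Nsdhl at 36.1 with the next at 19.9, Dhcr7 at 65.1 with the next at 35.3, and Scd2 at 977 with the next at 459. The others were Scap in EμMyc tumor 2, at 247 CPM with the next tumor at 165, Srebf1 in Th-MYCN tumor 1, at 79.4 with the next at 69.8, and Cyp51 in Th-MYCN/Casp2-/- tumor 3, at 162 with the next at 126. The lymphoma genotype differences of Insig1, Fdps, Nsdhl, Dhcr7 and Scd2 were 0.17, 0.84, -0.10, 0.38 and -0.09 on the log2 scale. EμMyc tumor 4 is wild type for Casp2, so its high values lowered each of them.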

How the results depend on the processing

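Counts of members passing held within 1.5 times under nearly all alternatives. The exception was EμMyc/Casp2-/- against EμMyc, with 0 in the quasi-likelihood test, 1 in the likelihood ratio test and 1 in DESeq2 (Pmvk in both). Over all genes tested these tests called 21 and 223 genes in these lymphomas by the quasi-likelihood and likelihood ratio tests, and 5 and 133 between neuroblastomas of the 2 genotypes. Without any one tumor, both genotype comparisons, their average and the interaction stayed at 0, while EμMyc against Th-MYCN ranged from 18 to 25 (23 with all tumors) and EμMyc/Casp2-/- against Th-MYCN/Casp2-/- from 17 to 20 (21 with all tumors). In single genes, 28 of 360 alternative values in the wild type and 27 of 294 in the Casp2-/- tumor type comparison lost their call, and 0 turned direction. Sterol medians under each alternative and without Idi1 were added after seeing the data. The neuroblastoma median was -0.11 with onset as a covariate. No paired analysis was possible because the labels give mice and no replicate numbers shared between groups. Only 3 or 4 tumors a group limited the genotype comparisons, and Idi1, Me1 and Fads2 were limited by few reads in lymphomas.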
